A study of Sus scrofa with 12 samples.

Results

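Blood and endothelial miRNAs are the mature miRNAs named miR-126, miR-142, miR-144, miR-150, miR-223, miR-451 or miR-486, on either arm, in small-RNA libraries of porcine mesenchymal stromal/stem cells (MSCs) and of the extracellular vesicles (EVs) that these cells shed. They were chosen by name. Of 326 mature miRNAs in the small-RNA table, 8 carried such a name, from 6 of the 7 families: miR-126-5p, miR-126-3p, miR-142-5p, miR-142-3p, miR-144, miR-150, miR-451 and miR-486. miR-223 had no entry in the table used here and was not analysed here. Of the 8, 7 had a count in at least 1 library, 6 had a count in at least 1 EV library, and 2 (miR-126-3p and miR-486) passed the filter on low counts for the test.

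The MSCs came from abdominal fat of 3 female domestic pigs aged 3 months, were grown in medium with platelet lysate, and were used at passage 3. EVs were collected from the supernatant of the same cells by ultracentrifugation, so each pig (1 to 3) gave an MSC and an EV library of small RNA and another pair of mRNA. Neither group received a treatment or carried a genetic change, and the contrast throughout was EV against MSC. The cells were a culture of adherent stromal cells with no circulating blood, and what the medium or its platelet lysate added to the EV fraction cannot be told apart from what the cells released, because no cell-free medium was among these libraries.

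miRNAs are short RNAs that lower the translation and stability of the mRNAs they pair with, and several are made almost wholly by a single lineage. miR-126 is the miRNA of endothelial cells, where it sustains signalling by vascular growth factors, and it is also carried by platelets. miR-142 is made across blood cell lineages, and miR-150 by mature lymphocytes. miR-144 and miR-451 are cut from a shared transcript in red cell precursors, and miR-486 is abundant in red cells and in muscle. Since a small number of blood or endothelial cells can bring such miRNAs into a preparation, they are read as markers of those cells as well as for their targets.

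The libraries differed greatly in depth. MSC libraries held 9455607 to 15395871 miRNA counts, whereas EV 1 held 656888, EV 2 held 19454 and EV 3 held 18374. The level that 3 counts would give, taken here as the floor of detection, was therefore 0.195 to 0.317 CPM (counts scaled to a library total of 1000000) in MSCs, but 4.57 CPM in EV 1, 154 CPM in EV 2 and 163 CPM in EV 3. miR-21 alone took 28.8%, 33.5% and 74.4% of the counts in MSC 1, 2 and 3 and 8.19% to 13.6% in EVs. EV 3 stood apart from the other EV libraries: with the fewest counts it had the most mature miRNAs detected (187, against 128 in EV 1 and 79 in EV 2), and its scaling factor by the trimmed mean of M-values (TMM) was 3.37, against 0.856 and 0.778. Of 220 miRNAs tested, 58 had a count in EV 3 and in no other EV library. The small-RNA libraries of pig 3, MSC 3 and EV 3, also have titles of another form than those of pigs 1 and 2. The labels do not say what this form stands for, and its bearing on the values was not tested.

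miR-126-3p was the most abundant of these miRNAs in MSCs. Its counts in MSC 1, 2 and 3 were 1220, 1138 and 1047, which the deposited values put at 79.2, 77.4 and 111 CPM (89.1 ± 18.7, SD, n = 3). By level it ranked 134 of the 269 miRNAs detected in MSC 1, 135 of 268 in MSC 2 and 87 of 269 in MSC 3, near the middle of the list. In EVs it had 0 counts in EV 1, 0 in EV 2 and 22 in EV 3, or 0, 0 and 1197 CPM, where it ranked 65 of 187. How even the MSC libraries were depended on the scaling. Over library totals they lay within 1.43-fold of each other, whereas with TMM factors, which allow for the share of miR-21 in MSC 3, they were 73.7, 72.3 and 366 CPM, a 5.06-fold range, and EV 3 was 431 CPM. On both scales EV 3 lay above every MSC library and EV 1 and EV 2 were at 0. In such bulk libraries, a few cells rich in a miRNA and a low level in every cell cannot be told apart.

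The counts behind these EV values were small, and the depth decided what each could show. At the share that miR-126-3p held in MSCs of the same pig, EV 1 would have held 52.1 reads (50.8 to 72.7 over the shares of the 3 MSC libraries), yet it held 0. EV 2 would have held 1.51 reads and held 0, within counting error. EV 3 would have held 2.03 reads and held 22. In pig 1 the EV level was thus at least 17.4-fold lower than in MSCs when the 0 is set at the floor, and in pig 3 it was 10.8-fold higher, with an exact 95% interval for counting error of 6.75 to 16.5. These folds are over library totals. With TMM factors the rise in pig 3 was 1.18-fold (0.735 to 1.79), an interval that holds equal levels, while the level in pig 1, set at the floor, was still at least 12.7-fold lower. By the exact interval, a looser bound, the upper limit of the fold in pig 1 was 0.0710 over library totals and 0.0968 with TMM factors. In pig 2 the floor of 154 CPM lay above the MSC level of 77.4 CPM, so a fall was not detectable at this depth, and the upper limit of the fold was 2.46 over library totals and 3.87 with TMM factors.

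A count of 0 in EV 1 was not particular to miR-126-3p. Of 125 mature miRNAs with an MSC mean at or above its 89.1 CPM, itself included, 20 were at 0 in EV 1, 51 in EV 2 and 12 in EV 3. With 0 counts in both EV 1 and EV 2 and at least 22 in EV 3 there were 4 of the 220 tested miRNAs, namely miR-126-3p, miR-1285, miR-224 and miR-210, which were named after their values were seen. EV 1 and EV 2 pooled put miR-126-3p at least 20.1-fold below its MSC mean, at a floor of 4.44 CPM for the pool, a bound to which EV 1 contributed nearly all reads.

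miR-486 was low in MSCs, and it was the member with the most EV reads. This mature miRNA has 2 precursor entries in the table, between which the authors shared its reads equally, so the deposited CPM of 1 entry is the level of a single precursor. Its reads over both entries were 193, 376 and 29 in MSC 1, 2 and 3, and its deposited CPM of 1 entry was 6.27, 12.8 and 1.53 (6.86 ± 5.65, SD, n = 3), an 8.35-fold range. With TMM factors these levels were 5.86, 11.9 and 5.25 CPM, a 2.28-fold range. In EVs the reads were 55, 0 and 90, and the deposited CPM 41.9, 0 and 2449. EV 1 and EV 3 lay above every MSC library, on this scale and with TMM factors, and EV 2 lay at 0 with a floor above all of them.

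**Figure D1:**
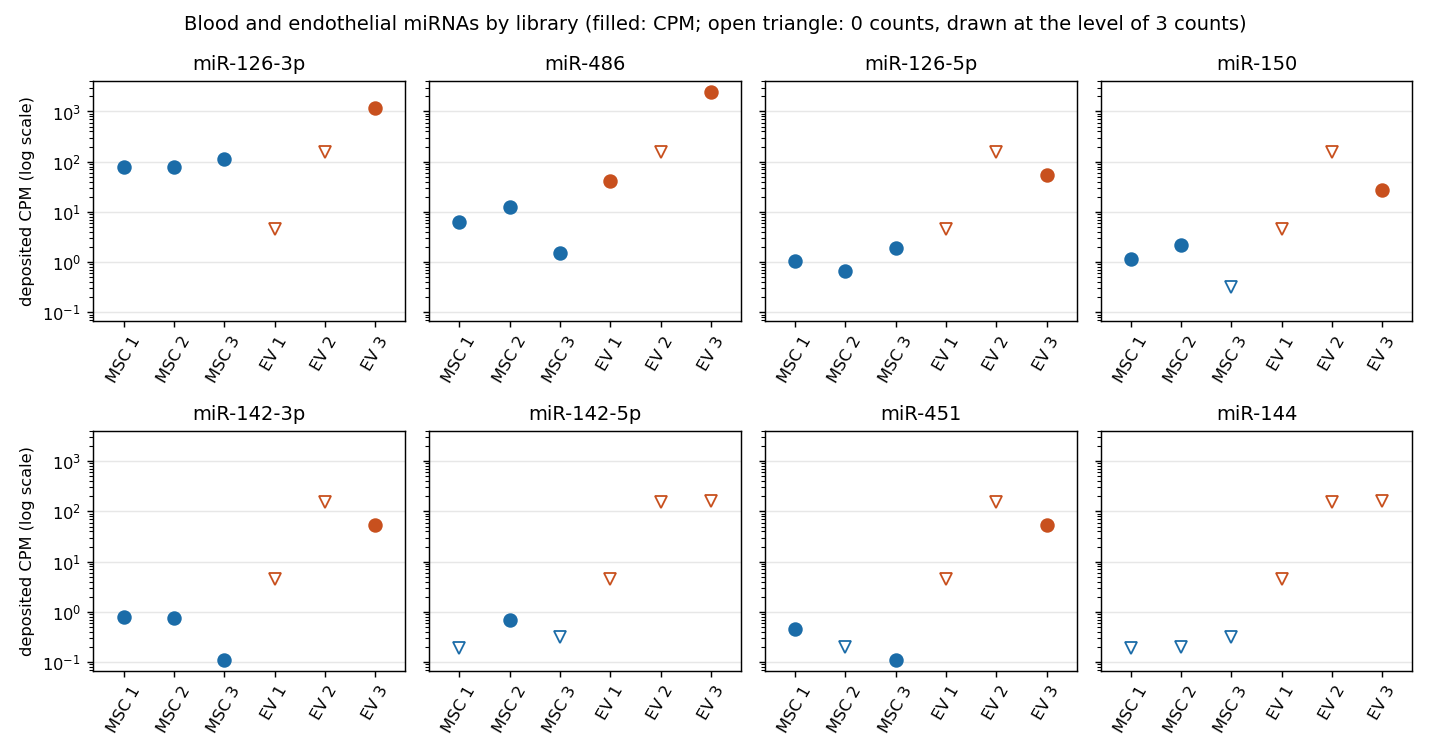
Deposited CPM (log axis) of the 8 blood and endothelial miRNAs in each MSC (blue) and EV (orange) library of pigs 1 to 3, with open triangles at the level of 3 counts where a library had 0. miR-126-3p lies between 77.4 and 111 CPM in MSCs, at 0 in EV 1 and EV 2 and at 1197 CPM in EV 3, while miR-486 lies above every MSC library in EV 1 and EV 3.

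Both EV libraries with miR-486 held more of it than the MSC share would give. EV 1 would have held 8.23 reads at the share of the MSCs of pig 1 (2.01 to 16.8 over the 3 MSC libraries) and held 55. EV 3 would have held 0.0564 reads (up to 0.470) and held 90. The EV level was 6.68-fold that of MSCs in pig 1 (exact 95% interval for counting error, 4.86 to 9.05) and 1597-fold in pig 3 (1041 to 2518), over library totals. With TMM factors the folds were 9.11 in pig 1 (6.62 to 12.3) and 174 in pig 3 (113 to 274), so on both scales the fold differed between these pigs by more than counting error. EV 2 would have held 0.497 reads, so a fall was not detectable there, and the upper limit of the fold in pig 2 was 7.45 over library totals and 11.7 with TMM factors, below the fold in pig 3.

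**Figure D2:**
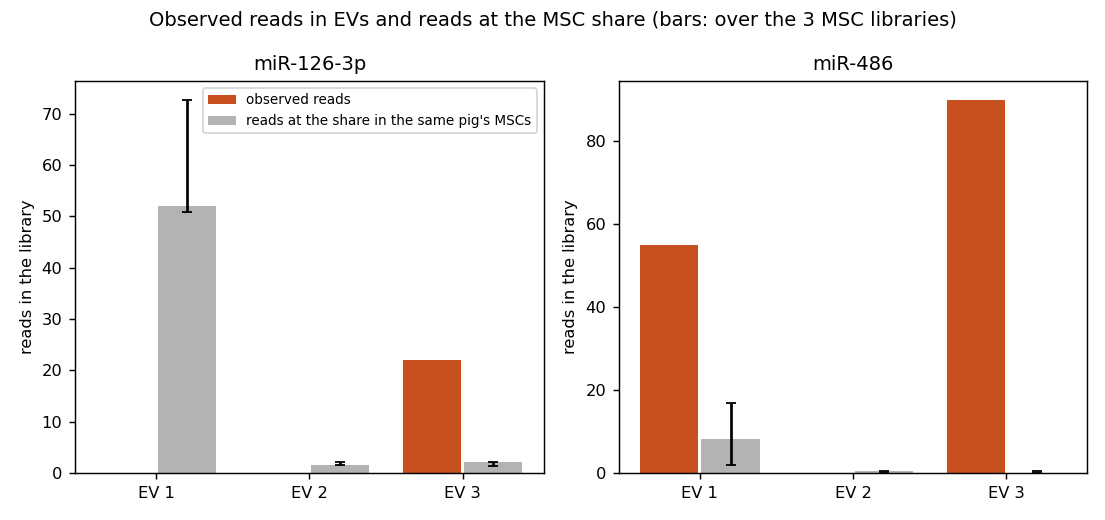
Reads of miR-126-3p and miR-486 observed in each EV library (orange) and reads it would hold at the share in MSCs of the same pig (grey), with bars from the lowest to the highest value over the 3 MSC libraries. miR-126-3p falls short of the MSC share in EV 1 (0 against 52.1 reads) and exceeds it in EV 3 (22 against 2.03), whereas miR-486 exceeds it in both EV 1 and EV 3. Shares are of library totals, and with TMM factors the rise of miR-126-3p in pig 3 was 1.18-fold.

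Across all tested miRNAs, the contrast of EV and MSC libraries was fitted with edgeR (quasi-likelihood, p adjusted after Benjamini and Hochberg over all miRNAs), and a miRNA was called when it changed over 2-fold at an adjusted p under 0.05. No miRNA of 220 met it (0% of those tested), and the lowest adjusted p was 0.0838. By edgeR's unadjusted p under 0.05, 67 miRNAs differed, 14 higher in EVs (6.36% of those tested) and 53 lower (24.1%). With the pig as a block, these became 3 higher and 13 lower. The same adjusted rule called 14 higher and 10 lower with DESeq2, 0 higher and 36 lower with limma on log2(CPM + 1), and 0 higher and 14 lower with limma on log2(CPM + 10).

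miR-126-3p did not meet the threshold, and its fitted change was near 0 with a wide error. On the TMM scale its level was 171 ± 169 CPM in MSCs and 143.7 ± 249 CPM in EVs (SD, n = 3 each). On the log2 scale the change was -0.20 (SE 2.04) with an adjusted p of 0.954 by edgeR. The median log2 fold change of all 220 tested miRNAs in the same fit was -0.98. The sign of miR-126-3p was negative in 8 and positive in 7 of 15 other fits, among them 0.74 with relative log expression (RLE) size factors and 2.30 with library totals alone, so no direction can be given for EVs as a group. Without EV 3 the change was larger and negative, with an edgeR adjusted p of 0.0363. In that fit the median of all 220 tested miRNAs was -4.30, and by the adjusted rule 93 were lower and 20 higher. The adjusted p of miR-126-3p ranged from 0.0363 to 0.966 over the 15 fits.

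miR-486 had the third highest fitted fold change of the 220 miRNAs, yet it did not pass the adjustment. Its TMM-scaled level was 7.68 ± 3.70 CPM in MSCs and 312 ± 494 CPM in EVs (SD, n = 3 each). On the log2 scale the change was 5.37 (SE 1.87), with an unadjusted p of 0.0232 and an adjusted p of 0.108 by edgeR. It was thus among the 14 miRNAs higher in EVs by the unadjusted rule. The unadjusted p was under 0.05 in 9 of 15 other fits, and it was 0.346 with the pig as a block (edgeR), 0.364 and 0.21 with limma at pseudocounts of 1 and 10, and 0.0998, 0.0711 and 0.0952 by edgeR without MSC 1, 2 and 3. The change was positive in 15 of 15 other fits, from 2.52 to 7.02 on the log2 scale, but the adjusted p ran from 0.00203 (DESeq2) to 0.699 (edgeR with the pig as a block) and was under 0.05 in 2 of them. The other of these was the fit without EV 3, in which the log2 fold change was 2.52, edgeR's adjusted p 0.0405, and the median of all tested miRNAs -4.30.

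**Figure D3:**
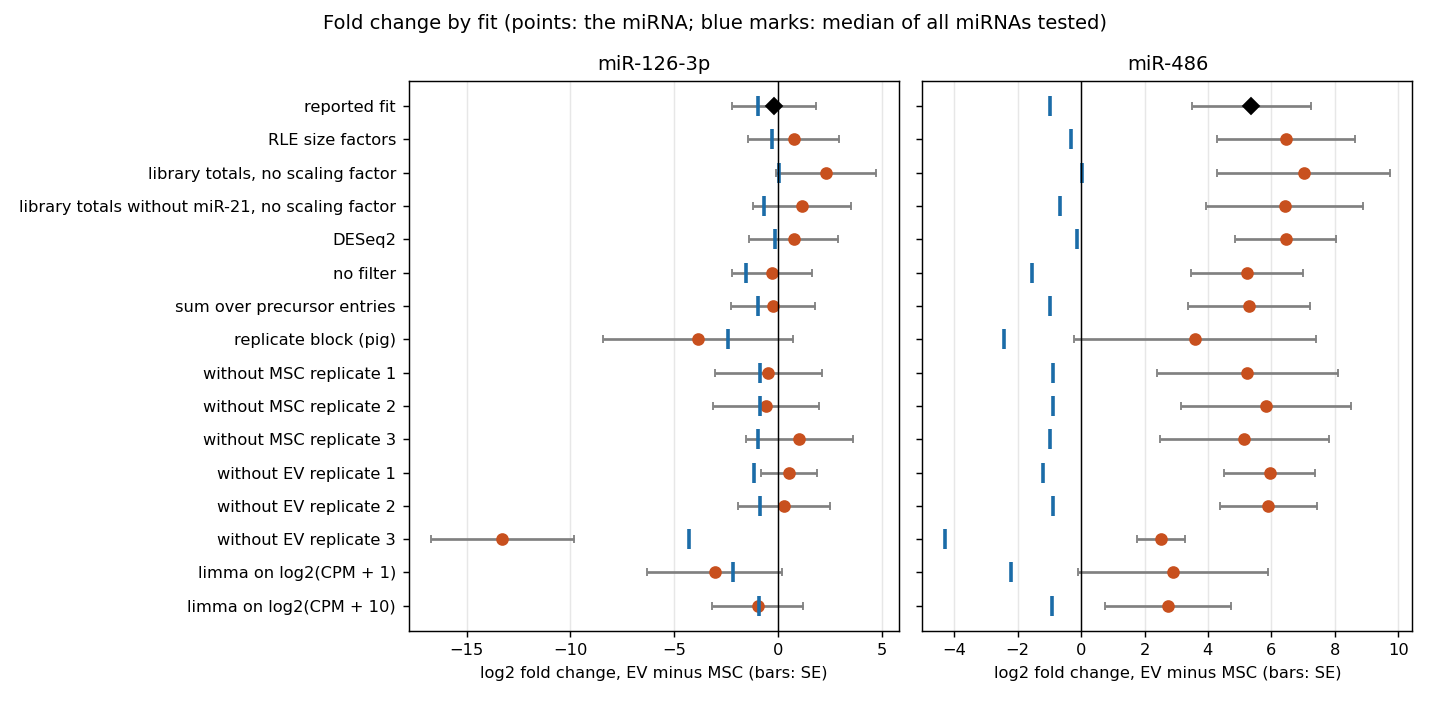
Fitted log2 fold change of EV minus MSC (horizontal axis, bars SE) for miR-126-3p and miR-486 in the reported fit (diamond) and in 15 others (circles), with the median of all miRNAs tested in each fit as a blue mark. miR-126-3p falls on both sides of 0, from -13.28 without EV 3 (a fitted value against EV libraries at 0, which is no bound) to 2.30, and miR-486 stays above 0, from 2.52 to 7.02.

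miR-126-3p did not keep the groups apart in deposited CPM, and for miR-486 the depth of EV 2 was too low to tell. Every EV library lay below every MSC library for 52 of the 220 tested miRNAs (23.6%) and above for 15 (6.82%). Neither miR-126-3p nor miR-486 was among them. For miR-126-3p, EV 1 lay below every MSC library and EV 3 above. For miR-486 only EV 2 was not above, and it would have held 0.497 reads at the MSC share. A 0 in EV 2, where the floor was 154 CPM, keeps any miRNA from lying above every MSC library, so these percentages depend on depth. EV 3 was the highest EV library for 121 (55%), with miR-126-3p and miR-486 among these. Whether the features that set EV 3 apart bear on the values of miR-126-3p and miR-486 in it was not tested.

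miR-126-5p, the passenger arm of the endothelial miRNA, was detected beside its partner at a much lower level. Its counts were 16, 10 and 18 in MSCs (1.04, 0.68 and 1.90 CPM) and 0, 0 and 1 in EVs. It made up 1.29%, 0.871% and 1.69% of the reads of both arms in MSC 1, 2 and 3, and 1.28% over the 3 libraries together (44 of 3449 reads, Wilson 95% interval 0.952% to 1.71%). In EV 3 it made up 1 of 23 reads, or 4.35%, with an interval of 0.772% to 20.99% that holds the MSC share. The arm ratio of miR-126 was therefore not distinguishable between MSCs and EVs at this depth.

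The leukocyte miRNAs were at the edge of detection in MSCs. miR-142-3p had 12, 11 and 1 counts in MSC 1, 2 and 3 (0.78, 0.75 and 0.11 CPM), and 0, 0 and 1 in EVs. miR-142-5p had 10 counts in MSC 2 and 0 in each of the other 5 libraries, so that the 5p arm took 10 of 21 miR-142 reads in MSC 2 (47.6%, Wilson 95% interval 28.3% to 67.6%) and 0 of 12 in MSC 1 (up to 24.2%). The arms of miR-142 were thus uneven between these cultures by more than counting error.

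miR-150, which lymphocytes raise as they mature, was present in MSCs of pigs 1 and 2 and not in those of pig 3. Its reads over 2 precursor entries were 35, 66 and 0, and its deposited CPM of 1 entry was 1.14, 2.24 and 0. The 0 in MSC 3 allows a level of up to 0.317 CPM. In EVs it had 0, 0 and 1 reads, and at the share of the same pig's MSCs EV 1 would have held 1.49, so that a fall was not detectable, and the upper limit of the fold in pig 1 was 2.61 over library totals. In MSC 3 miR-142-3p was at 0.11 CPM and miR-486 at 1.53 CPM, the lowest MSC values of each, while miR-126-3p was at its highest there, 111 CPM. miR-21 took 74.4% of the counts of MSC 3, which lowers the CPM of every other miRNA in it, and the part of this in the low values was not tested.

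The erythroid pair was nearly absent. miR-451 had 7, 0 and 1 counts in MSC 1, 2 and 3 (0.45, 0 and 0.11 CPM) and 0, 0 and 1 in EVs, and miR-144 had 0 in all 6 libraries. A 0 of miR-144 allows up to 0.317 CPM in MSCs, but up to 163 CPM in EV 3, where little can be said. miR-486, the other red cell miRNA, outnumbered miR-451 in every library that held it, with 193 reads to 7 in MSC 1, 376 to 0 in MSC 2, 29 to 1 in MSC 3, 55 to 0 in EV 1 and 90 to 1 in EV 3. miR-486 is also a muscle miRNA, and red cells carry miR-451 in abundance.

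The ratio of miR-23a to miR-451, used in plasma as a measure of red cell lysis because miR-23a is little changed by it, could be computed in 3 libraries. On the log2 scale it was 13.56 in MSC 1, 13.03 in MSC 3 and 6.38 in EV 3. The lower value of EV 3 rests on 1 read of miR-451 against 83.5 counts of miR-23a. That of MSC 3 also rests on 1 read of miR-451, against 8383 counts of miR-23a, and that of MSC 1 on 7 reads. No miR-451 read was found in MSC 2, EV 1 or EV 2.

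As a group, these miRNAs took a near equal share of the MSC library totals and an unequal share of the EV totals. The near equality is of library totals only, and miR-21 took 74.4% of the counts of MSC 3. With TMM factors miR-126-3p, the largest part of the MSC sum, had a 5.06-fold range over the MSC libraries. Summed over the 8, the level was 96.3, 110 and 116 CPM in MSC 1, 2 and 3 and 83.7, 0 and 6313 CPM in EV 1, 2 and 3, counting reads over all precursor entries. The EV 2 value allows up to 154 CPM. The makeup moved as well, because miR-126-3p gave 82.3%, 70.6% and 95.5% of these reads in MSCs and miR-486 gave 13.01%, 23.3% and 2.65%. In EV 1 all 55 reads were miR-486, and in EV 3 miR-486 gave 77.6% of 116 reads and miR-126-3p 19.0%.

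Over the 6 libraries, the miRNAs whose log2(CPM + 1) followed miR-126-3p most closely were miR-17-5p (Pearson r = 0.992), miR-374b-5p (0.981) and miR-361-5p (0.980). Those that followed miR-486 were miR-92b-3p (0.986), miR-504 (0.975) and miR-192 (0.945). These values are descriptions over 6 points that share libraries and their depth. miR-17-5p, of the miR-17 to miR-92 cluster, had 345, 448 and 259 CPM in MSCs and 1.52, 0 and 8481 CPM in EVs, and miR-92b-3p had 313, 351 and 78.3 CPM in MSCs and 417, 51.4 and 9034 CPM in EVs. The first thus shared with miR-126-3p the low EV 1 and high EV 3 levels, and the second shared with miR-486 an EV 1 level above that of every MSC library.

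Other miRNAs known from blood and endothelium were read in the same fit. Of 20 mature miRNAs with such names outside the 7 families, 18 were tested, 0 passed edgeR's adjusted threshold, and by the unadjusted one 0 were higher and 2 lower in EVs (miR-15a and miR-424-5p), beside 6.36% higher and 24.1% lower of all miRNAs tested. Their median log2 fold change was -0.51, beside -0.98 for all 220 miRNAs. The pair with the most counts was miR-221-3p, an endothelial and stromal miRNA, and miR-92a, which red cells and endothelium make. miR-221-3p had 9163, 7953 and 1429 CPM in MSCs and 1367, 1645 and 12300 CPM in EVs (log2 fold change -1.27, SE 0.76, edgeR adjusted p = 0.323). miR-92a had 3761, 3095 and 1906 CPM in 1 entry in MSCs and 3042, 2005 and 94887 CPM in EVs (log2 fold change 1.69, SE 1.12, edgeR adjusted p = 0.376).

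The summed levels of these lists in EV 3 also differed from those in the other EV libraries, to a degree that depended on 1 miRNA and on the scaling. The red cell list summed to 4705 to 10529 CPM in MSCs, 5622 and 8019 CPM in EV 1 and EV 2 and 186999 CPM in EV 3. miR-92a made up most of this, at 18.2% of all counts in EV 3 against 0.365% to 0.707% in the other libraries, and without it the list summed to 5007 CPM in EV 3, 396 CPM in EV 1, 4010 CPM in EV 2 and 1058 to 3719 CPM in MSCs. The immune list summed to 1766 to 6027 CPM in MSCs, 1615 and 1182 CPM in EV 1 and EV 2 and 54206 CPM in EV 3, and the endothelial list to 2391 to 13251, 9096, 9099 and 23402 CPM. Divided by the TMM factors, the endothelial list was 6951 CPM in EV 3, below EV 1 (10623 CPM) and EV 2 (11698 CPM), so its order turned. The immune list (16101 CPM) stayed highest in EV 3, and so did the red cell list with miR-92a in it (55546 CPM). Without miR-92a, the TMM factors of 3.37 in EV 3 and 0.778 in EV 2 would put the red cell list lower in EV 3 than in EV 2. MSC miRNAs (miR-143, miR-145, miR-199a and miR-214) were lowest in EV 3, with 61226 to 102508 CPM in MSCs, 48771 and 40027 CPM in EV 1 and EV 2 and 2359 CPM in EV 3. EV 3 was the highest EV library for 4 of 6 red cell, 5 of 5 immune, 4 of 7 endothelial and 0 of 7 MSC miRNAs tested, beside 121 of all 220 (55%). EV 3 was singled out after its values were seen, and whether other cells or medium contributed to it was not tested.

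**Figure D4:**
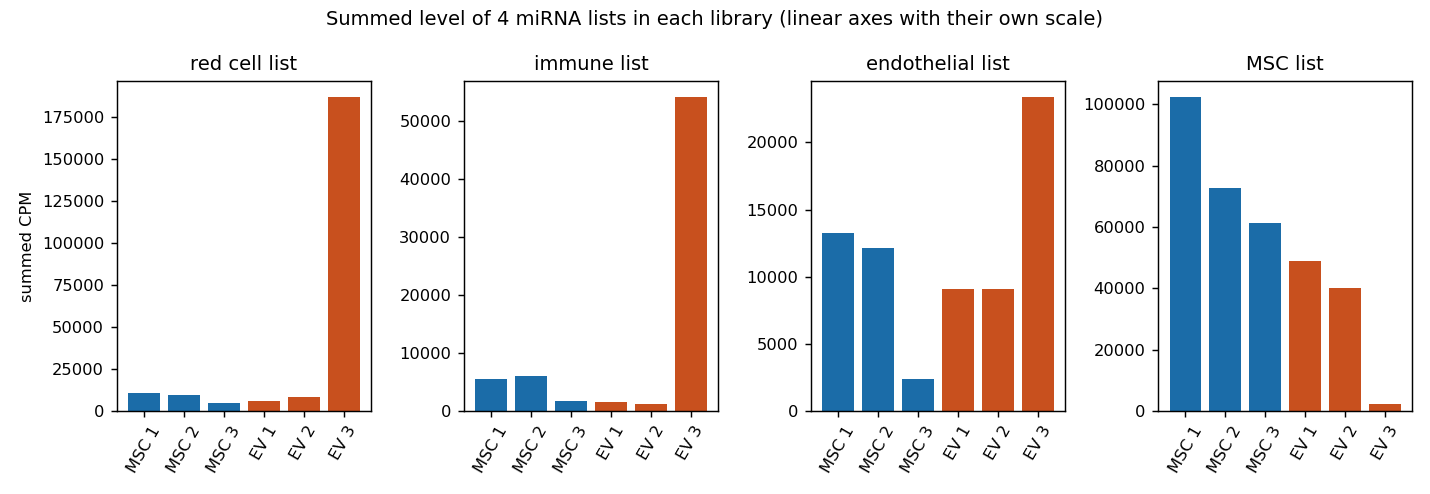
Summed CPM of the red cell, immune, endothelial and MSC miRNA lists in each MSC (blue) and EV (orange) library, on linear axes with a scale of their own. EV 3 is the highest library for the red cell (186999 CPM), immune (54206 CPM) and endothelial (23402 CPM) lists and the lowest for the MSC list (2359 CPM), but with TMM factors the endothelial list is lowest in EV 3 (6951 CPM). Without miR-92a the red cell list sums to 5007 CPM in EV 3 and 4010 CPM in EV 2.

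miR-126 and miR-486 lie within protein-coding genes whose mRNA was measured in the same cultures. By the RefSeq annotation of Sscrofa11.1, MIR126 lies within EGFL7, a secreted factor of endothelial cells, and MIR486-1 within ANK1, the ankyrin that ties the red cell membrane to its skeleton. MIR451 and MIR144 lie next to each other within the span of ERAL1, and MIR142 lies between TSPOAP1 and SUPT4H1. In the mRNA table, which uses build susScr3, the MIR486-1 precursor is at chr17:12191266-12191345 on the minus strand, inside ANK1 (ENSSSCG00000007022, chr17:12182620-12419338, minus strand), and MIR142 is at chr12:36203916-36203995 on the plus strand. Both precursors had 0 reads in all mRNA libraries, but each shares its span with another entry, and fragments of this length are poorly kept in mRNA libraries.

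EGFL7 mRNA (ENSSSCG00000005828, chr1:313727477-313737435 in susScr3, plus strand) was present in all 6 mRNA libraries. Its reads numbered 212, 552 and 197 in MSC 1, 2 and 3 and 233, 254 and 108 in EV 1, 2 and 3, and the groups overlapped. Its TMM-scaled level was 28.7 ± 20.9 CPM in MSCs and 16.8 ± 5.10 CPM in EVs (SD, n = 3 each). On the log2 scale the change was -0.77 (SE 0.52, edgeR adjusted p = 0.455) and rested on MSC 2, without which it was 0.023. An entry on the opposite strand overlaps EGFL7, and reads from the shared stretch are uncertain. Beside the 233 reads of this host mRNA in EV 1, miR-126-3p had 0 reads where the MSC share would give 52.1. Beside the 254 reads in EV 2, that share would give only 1.51 reads of miR-126-3p, so its 0 there says little. The mRNA libraries of EV 1 and EV 2 held 10429085 and 12151384 reads, against 656888 and 19454 miRNA counts, so read numbers cannot be compared across the assays.

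ANK1 mRNA was low in both groups. Its reads numbered 74, 119 and 19 in MSC 1, 2 and 3 and 24, 60 and 110 in EV 1, 2 and 3, or 6.24 ± 4.91 and 5.95 ± 4.68 CPM on the TMM scale (SD, n = 3 each). On the log2 scale the change was -0.07 (SE 0.79, edgeR adjusted p = 0.971). Without MSC 2, EV 1 or EV 2 the sign turned, to 0.68, 0.34 and 0.078. Its highest EV value was in EV 3, as for miR-486, and the MSC libraries had the same order for both. With TMM factors ANK1 was at 5.73, 11.4 and 1.61 CPM in MSC 1, 2 and 3, and miR-486 at 5.86, 11.9 and 5.25 CPM. The order of EV 1 and EV 2 was not the same, and in EV 2 miR-486 was at 0 with a floor above all MSC values. ANK1 was lowest among EVs in EV 1 (2.03 CPM), where miR-486 lay above every MSC library. EV 3 was the highest EV library for 55% of all tested miRNAs. The titles number the pigs differently in the mRNA and small-RNA libraries, while the pig labels are the same, so that pairs across the assays are uncertain.

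For context, no mRNA entry of 12392 passed edgeR's adjusted threshold (0% of those tested), and the lowest adjusted p was 0.129. By the unadjusted p under 0.05, edgeR gave 1978 entries, of which 1130 also had a fold change over 2 (9.12%). The adjusted rule called 61 higher and 75 lower with the pig as a block, 253 higher and 186 lower with DESeq2, and 1 higher and 10 lower with limma on log2(RPKM + 1).

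As sums, markers of blood cells and endothelium were low beside those of MSCs in both groups, a gap set mostly by 1 MSC gene, VIM. The MSC markers summed to 12896 to 24750 CPM in MSCs and 11598 to 17409 CPM in EVs (5 of 8 with reads). VIM alone had means of 16399 CPM in MSCs and 12830 CPM in EVs. In MSCs, CD44, NT5E and PDGFRB had means of 574, 113 and 599 CPM. ENG had 4.64 CPM there, below CD14 (45.6 CPM) and EGFL7 (26.8 CPM) of the lists that follow. The endothelial markers summed to 41.4 to 67.1 CPM in MSCs and 29.9 to 42.5 CPM in EVs (8 of 10 with reads, EGFL7, ERG and PECAM1 among the highest). KDR, the main receptor for vascular endothelial growth factor, had 1 read in EV 2 and 0 in the other 5 libraries. It overlaps another entry, so these low counts are uncertain. The leukocyte markers summed to 41.7 to 56.3 CPM in MSCs and 38.7 to 69.5 CPM in EVs (9 of 12 with reads), most of it CD14, and PTPRC, the common leukocyte antigen, had 2 to 10 reads. The red cell markers summed to 14.9 to 18.0 CPM in MSCs and 21.2 to 21.8 CPM in EVs (4 of 11 with reads), nearly all of it SLC4A1 and ANK1. The platelet markers summed to 3.83 to 5.19 CPM in MSCs and 2.68 to 5.25 CPM in EVs (4 of 8 with reads).

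Several defining markers could not be read from this table. VWF of endothelium, LYZ and CD3E of leukocytes, HBB, ALAS2 and KLF1 of red cells, PPBP, ITGA2B and GP6 of platelets, and THY1 and COL1A2 of stromal cells were listed at 0 in all 6 libraries. Of these 11 genes, 10 shared their span with another entry and 1 (ALAS2) lay on an X sequence named without a prefix. Reads of overlapping entries may have been left uncounted, and a 0 among them is no sign of absence. Of the 30 marker genes with reads, 15 overlapped no other entry. KDR, ENG, PECAM1, ERG, EGFL7, ANK1 and CD14 were not among these, and their low levels are uncertain for the same reason. CDH5, CORO1A, COL1A1, PF4, HBA1, HBA2 and AHSP had no entry in the table used here. The share of other cell types in these cultures, and its part in the levels of miR-126-3p and miR-486, was not tested.

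**Figure D5:**
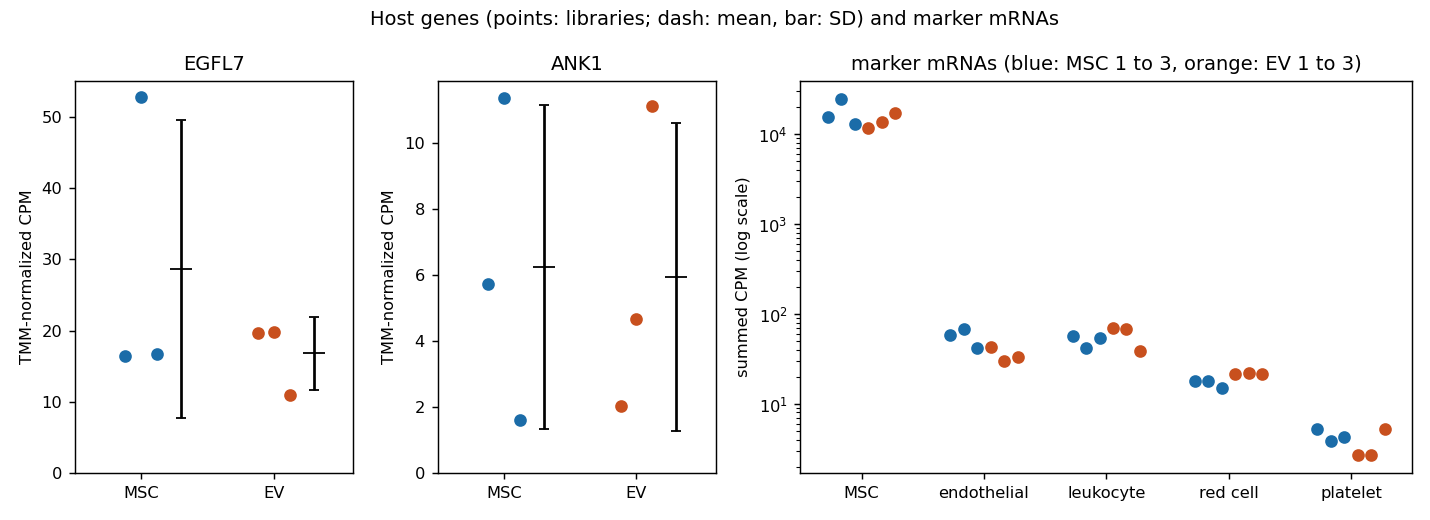
TMM-scaled CPM of EGFL7 and ANK1 mRNA in each MSC (blue) and EV (orange) library with mean and SD, and summed CPM (log axis) of 5 lists of marker mRNAs. EGFL7 and ANK1 overlap between the groups, and the endothelial, leukocyte, red cell and platelet lists lie at 2.68 to 69.5 CPM, below the MSC list at 11598 or more. Most of the MSC list is VIM.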

How the data were processed

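Small RNA and mRNA were sequenced from MSCs and EVs of 3 pigs (12 libraries). The authors made the expected counts of 385 miRNA entries with CAP-miRSeq (cutadapt 0.9.5 and Bowtie 0.12.7 are in the submitters' processing notes, with build susScr3), sharing reads among precursors in fractions, and deposited CPM scaled to each library's sum. The authors also deposited mRNA read counts and RPKM for 29661 entries, of which 3 shifted by a column were left out. No genome was used here.

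For each mature name the entry with the largest total was used, with expected counts rounded for testing. EVs were compared with MSCs by edgeR 4.0.16 in R 4.3.3 (TMM, filterByExpr, quasi-likelihood test, Benjamini-Hochberg adjustment over all entries tested). Alternatives were RLE factors, library totals with and without miR-21, no filter, summed precursor entries, DESeq2 1.42.0, limma 3.58.1 on log2 values with pseudocounts of 1 and 10, the pig as a block, and each library left out. EV means without each EV library, and folds within a pig, MSC spreads and list sums with TMM factors, were added after the data were seen. Wilson and exact intervals (95%) and floors of 3 counts cover counting error only, since reads carry no molecular identifiers.

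The members and lists were chosen with earlier results of these data known. Genes named are the members, their host genes EGFL7 and ANK1, for miR-126-3p and miR-486 the 3 tested miRNAs most correlated over 6 libraries, the 2 blood- or endothelium-linked miRNAs with the most counts, and the marker lists. The pig labels pair the libraries. Deviations of the same pig's libraries from the group means correlated at -0.219, -0.027 and -0.133 in small RNA and at 0.251, 0.384 and 0.408 in mRNA. On simulated data, edgeR recovered 2.5% of 40 miRNAs changed 16-fold among 220, with 0 false calls. Of 200 mRNAs among 12392 it recovered 43% at 4-fold, with 6 false calls, and 91.5% at 16-fold, with 12.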

Additional observations from a re-analysis of the deposited data

How the results depend on the processing

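Depth limits every EV value here, since EV 2 and EV 3 held 19454 and 18374 counts and 1 count in EV 3 is 54.4 CPM. The miR-126-3p log2 fold change turned positive with RLE factors (0.74), library totals (2.30), totals without miR-21 (1.14), DESeq2 (0.74), and without MSC 3 (1.02), EV 1 (0.52) or EV 2 (0.29), and leaving out a library moved it from -13.28 to 1.02. miR-486 kept its sign. With DESeq2, 14 miRNAs were higher and 10 lower by the adjusted rule, and 30 and 29 by the unadjusted one. limma gave 36 lower (adjusted, pseudocount 1) and 14 lower (adjusted, pseudocount 10), and by the unadjusted rule 6 and 7 higher, with 31 lower at pseudocount 10. Leaving out a library moved the adjusted counts from 0 to 20 higher and from 0 to 93 lower, both highest values without EV 3, and the unadjusted counts from 4 to 24 higher and from 40 to 111 lower. The replicate block by pig gave 3 higher and 13 lower miRNAs unadjusted, and 61 higher and 75 lower mRNAs adjusted. For mRNA, DESeq2 gave 253 and 186, limma 1 and 10, and no filter 5 lower. Leaving out a library moved EGFL7 from -1.05 to 0.023 (without MSC 2) and ANK1 from -0.89 to 0.68, with 0.68, 0.34 and 0.078 without MSC 2, EV 1 and EV 2. The share of higher among unadjusted miRNA calls was 20.9% in the reported fit and 50.8% with DESeq2. Mean MSC levels of miR-486 and miR-150 rose to 13.7 and 2.25 CPM when precursor entries were summed, and miR-126-3p rose to 233 CPM without miR-21 in the total. The cause was not tested in any of these cases.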
